A study of Mus musculus with 12 samples.

Results

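Activating transcription factor 4 (ATF4) and the factor CHOP, encoded by Ddit3, head a stress programme of 10 genes that is described here in the C2C12 line, myoblasts of the mouse that can fuse into muscle fibres in culture. The 10 genes were listed by symbol as ATF4, its partner factors and its direct stress effectors, and all 10 were found among the 26271 loci of the authors' deposited table, each at 1 locus. Cells were kept for 24 h in DMEM of 3 kinds, called high glucose (25 mM), low glucose (5 mM) and galactose (10 mM, in place of glucose), each with 1 mM pyruvate, 10% fetal bovine serum and 1% penicillin and streptomycin, and polyA RNA was sequenced from 4 libraries per medium, 12 in all. The series' design text speaks of muscle stem cells taken singly, which differs from the sample labels, and the labels were followed.

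ATF4 is the main transcription factor of the integrated stress response. Kinases that sense amino acid shortage, unfolded protein in the endoplasmic reticulum, double-stranded RNA or haem and mitochondrial stress phosphorylate the initiation factor eIF2, which slows general translation and favours translation of the ATF4 message. ATF4 then binds DNA as a dimer with C/EBP factors and switches on genes of amino acid supply, further stress factors such as CHOP, ATF3 and ATF5, and brakes on the response such as Trib3 and Ppp1r15a. Because ATF4 is controlled largely at translation, its RNA level and its protein level can differ, and the values here are RNA levels alone.

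The sites that ATF4 and C/EBP factors bind together are known as C/EBP-ATF response elements. In the RefSeq promoter windows of the build GRCm38.p6 (250 bases before to 50 after an annotated start), the letters TGATGNAA were searched on both strands, as were the cAMP response element TGACGTCA and its variant TGACGTAA, which other ATF factors bind. All 10 genes had a window, 11 windows of 32851 in all, and a gene was counted where any of its windows held the letters. TGATGNAA was present for 4 of the 10 genes (Chac1, Nupr1, Atf3 and Trib3), against 4.51% of the 27025 genes in the table. The 27025 genes were not limited to those expressed here. The 10 were listed for their tie to ATF4, so these shares do not test a link. TGACGTCA was present for Ppp1r15a alone of the 10 (2.03% of all genes) and TGACGTAA for Atf3 alone of the 10 (0.581% of all genes), and no match overlapped another. Whether a match goes with the size of a rise was not tested. The stretches around these matches are shown because their genes include the 3 of the 10 with the largest rises in galactose (Trib3, Chac1 and Nupr1) and that with the smallest rise in low glucose (Ppp1r15a). Each is written 5′ to 3′ on the strand of its gene, with the match in capitals. The matches to TGATGNAA and to TGACGTAA lay on the strand opposite to the gene, so the capitals there are the reverse complement.
Chac1, chr2:119351024-119351081, plus strand: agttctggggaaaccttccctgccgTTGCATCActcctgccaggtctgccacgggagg
Nupr1, chr7:126625548-126625605, minus strand: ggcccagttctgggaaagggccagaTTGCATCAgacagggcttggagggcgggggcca
Atf3, chr1:191183411-191183468, minus strand: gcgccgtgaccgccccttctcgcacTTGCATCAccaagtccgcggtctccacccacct
Trib3, chr2:152344031-152344054, minus strand: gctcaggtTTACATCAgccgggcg
Ppp1r15a, chr7:45526269-45526305, minus strand: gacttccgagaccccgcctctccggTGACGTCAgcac
Atf3, chr1:191183334-191183368, minus strand: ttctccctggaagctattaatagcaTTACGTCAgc

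The Nupr1 and Atf3 matches to TGATGNAA began at the same distance, 110 bases before the start, and that of Chac1 began 193 bases before it. In Trib3 the match began at position 15 after the RefSeq start. The GENCODE M21 model of Trib3 starts at 152344032 on the same minus strand, which places the match at 152344039 to 152344046 outside that model. The GENCODE M21 models of Nupr1 and Atf3 reach further upstream than the RefSeq starts used here, to 126630861 and 191218039, so that their matches lie inside those models. For Atf4, Ddit3, Atf5, Cebpb and Cebpg none of the 3 sets of letters was in the window searched, which says nothing of sites elsewhere.

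Levels are FPKM, fragments scaled to transcript length and to the mapped fragments of the library, with 1 pooled value per medium, so no SD or spread between libraries can be given and the depth is unknown. A gene was called, and is said to have risen or fallen, where the q-value of the authors' own test was below 0.05. No label states that the 4 libraries per medium came from separate cultures, so the spread between these libraries may be technical. The q-values judge differences between media on these libraries and do not measure that spread. The FPKM of all loci added up to 548145 for high glucose, 582498 for low glucose and 617537 for galactose. The 7 myoblast markers looked up were each at 1.42 FPKM or more in every medium, and they added up to 903 FPKM for high glucose, 601 for low glucose and 497 for galactose. Of 5 fibroblast markers, Lum and Thy1 were listed at 0 and 1 reached 1 FPKM, and their sum lay between 1.84 and 2.56 FPKM. The adipocyte, endothelial and epithelial markers, and the immune markers whose locus held no other gene, stayed below 1 FPKM, the highest at 0.524. The sum of the myoblast markers was lower in low glucose and galactose, where the 10 stress genes were higher, and its part in the results was not tested. In RNA from bulk cultures, fewer cells that express a gene and less RNA per cell cannot be told apart.

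All 10 genes rose from high to low glucose, all 10 rose from high glucose to galactose, and all 10 rose from low glucose to galactose. The 10 were chosen with earlier results of these data known, so these counts are not independent evidence of direction. The background was wide: of 14699 loci tested, 18.3% were called higher in low than in high glucose, 26.5% of 14812 were called higher in galactose than in high glucose, and 17.4% of 14495 were called higher in galactose than in low glucose. The median log2 fold change of the 10 was 0.89, 1.66 and 0.75 in the 3 comparisons, beside medians over all tested loci of 0.0069, 0.0058 and 0.010. At least a 2-fold rise was seen for 4 of the 10 genes in low glucose, 9 of the 10 in galactose, and 3 of the 10 between low glucose and galactose, beside 1.39%, 4.06% and 2.19% of all tested loci. Of the 30 tests of these genes, 28 had the lowest q that the authors' deposited table holds, 0.000239. The other two were those of Ddit3 against low glucose. The 3 comparisons share their groups, so they are not independent of each other. The log2 change of the third follows from those of the other 2, whereas its calls do not.

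**Figure D1:**
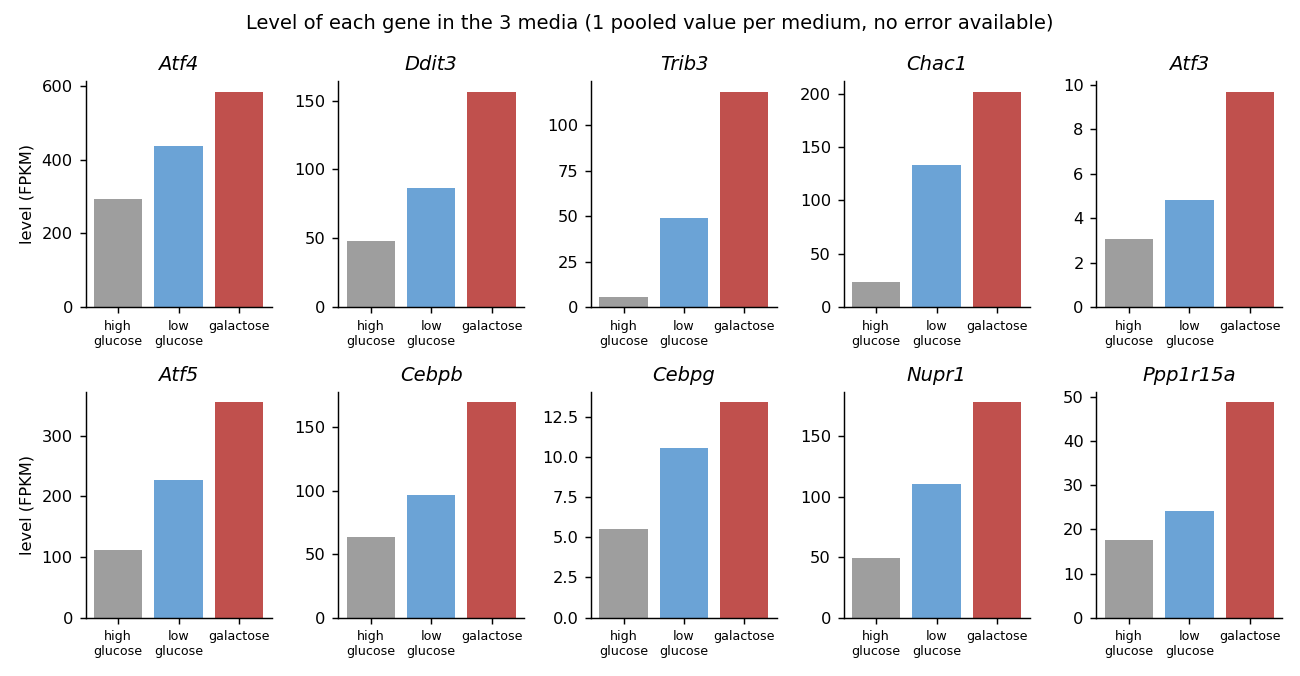
Level of each of the 10 genes (y axis, FPKM, from 0, with its own scale in each panel) in high glucose, low glucose and galactose, 1 pooled value per bar with no error. In each panel the bars go up from high glucose to low glucose to galactose, from 294 to 585 FPKM for Atf4 and from 5.58 to 118 FPKM for Trib3.

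The ATF4 gene itself had the smallest proportional rise of the 10 from high glucose to galactose, on the highest level. Atf4 (locus XLOC_007704, mm10 chromosome 15 from 80255184 to 80257547, plus strand) was at 294 FPKM in high glucose, 437 FPKM in low glucose and 585 FPKM in galactose. Its level in galactose was 1.99-fold that in high glucose, and the authors' deposited table gives this as 0.99 on the log2 scale. Among all loci it ranked 256th by level in high glucose, 168th in low glucose and 118th in galactose. In high glucose, where each of the 10 genes was at its lowest, Atf4 was thus already among the most abundant messages.

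Ddit3, which encodes CHOP, a C/EBP relative that joins ATF4 on stress genes and is known for its part in stress-induced cell death, was at 48.2 FPKM in high glucose, 86.4 FPKM in low glucose and 156 FPKM in galactose. Its 2 steps were alike in size, 1.79-fold and 1.81-fold, with q = 0.00494 and q = 0.000456 in the authors' deposited table. The level of Atf4 was 6.11 times that of Ddit3 in high glucose and 3.74 times in galactose. The locus of Ddit3 (XLOC_002003) is given as mm10 chromosome 10 from 127266077 to 127312206, a region of 46130 bases that holds 2 further entries with values of their own. RefSeq places Ddit3 itself at 127290793 to 127296291, on the plus strand. The neighbour Dctn2 was at 123 FPKM, 122 FPKM and 134 FPKM and was not called in any comparison against high glucose. The joint entry of Mars and Mbd6 rose by 1.31-fold in low glucose and 1.48-fold in galactose, less than Ddit3. The 3′ end of Ddit3 overlaps that of Mars, which lies on the other strand, and whether the counting used strand is not given in the sources used here.

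Atf5, a relative of Atf4 that is also controlled at translation and is linked to the mitochondrial stress response, was second in level among the 10 in each medium. It was at 111 FPKM in high glucose, 228 FPKM in low glucose and 355 FPKM in galactose, 2.04-fold and 3.18-fold the level in high glucose. The ratio of Atf4 to Atf5 went from 2.64 to 1.65 between high glucose and galactose. The locus of Atf5 (XLOC_021388, mm10 chromosome 7 from 44812256 to 44855504) likewise spans a shared region with 4 further entries. There, the entry of Nup62 and Il4i1 was at 59.7 FPKM, 64.2 FPKM and 56.4 FPKM, and neither it nor Tbc1d17 was called against high glucose, whereas Akt1s1 rose by 1.31-fold in galactose (q = 0.0159 in the authors' deposited table). Their changes were smaller than that of Atf5.

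Atf3, a stress-induced factor that often acts as a repressor, was the least abundant of the 10. It was listed at 3.07 FPKM in high glucose, 4.83 FPKM in low glucose and 9.67 FPKM in galactose. Its level in galactose was 3.15-fold that in high glucose. Despite the difference in level, the ratio of Ddit3 to Atf3 stayed between 15.7 and 17.9 in the 3 media. Its locus, XLOC_001292, lies on mm10 chromosome 1 from 191170164 to 191183350, minus strand.

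The 2 C/EBP genes on the list rose while another member of that family fell. Cebpb, whose product is an ATF4 dimer partner, was at 63.9 FPKM, 96.5 FPKM and 169 FPKM in high glucose, low glucose and galactose. Cebpg, a short C/EBP factor that pairs with ATF4 and lacks an activation domain, was at 5.54 FPKM, 10.6 FPKM and 13.4 FPKM. Outside the list, Cebpa, a factor of adipocyte and liver differentiation, fell from 8.59 FPKM to 3.48 FPKM in low glucose and 3.80 FPKM in galactose. Cebpd was not called in any comparison, with levels of 4.09 FPKM, 3.98 FPKM and 4.28 FPKM and the lowest q at 0.678 in the authors' deposited table. Cebpb thus stood at 7.44 times the level of Cebpa in high glucose, at 27.7 times in low glucose, and at 44.7 times in galactose. In high glucose Cebpa was above Cebpg, and in the other two media it was below it. These loci lie on mm10 chromosome 2 from 167688915 to 167690418 (Cebpb, plus strand) and chromosome 7 from 35046422 to 35056566 (Cebpg, minus strand).

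Trib3 and Chac1 rose most. Trib3, a pseudokinase gene whose product binds ATF4 and CHOP and holds the response back, was at 5.58 FPKM in high glucose, 49.0 FPKM in low glucose and 118 FPKM in galactose. Chac1, which encodes an enzyme that degrades glutathione, was at 23.7 FPKM, 133 FPKM and 202 FPKM. Of 13114 loci tested with at least 1 FPKM in the higher group, Trib3 had the 6th largest rise and Chac1 the 14th largest in low glucose. In galactose they ranked 18th and 40th of 13192. From low glucose to galactose Chac1 went up only 1.52-fold and ranked 533rd of 12998, and Trib3 went up 2.41-fold and ranked 102nd. The level of Atf4 was 52.8 times that of Trib3 in high glucose, 8.92 times in low glucose and 4.95 times in galactose. Both genes lie on chromosome 2 in mm10, Trib3 from 152337425 to 152344060 on the minus strand and Chac1 from 119351242 to 119354327 on the plus strand.

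Nupr1, which encodes a small stress-induced chromatin protein, was at 49.4 FPKM in high glucose, 110.4 FPKM in low glucose and 178 FPKM in galactose. It rose 2.23-fold in low glucose and 3.59-fold in galactose, the third largest rise of the 10 genes in each. It sits on mm10 chromosome 7 from 126623246 to 126625470, minus strand.

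Ppp1r15a encodes GADD34, a stress-induced subunit that directs a phosphatase to eIF2 and so ends the response. It was at 17.6 FPKM in high glucose, 24.2 FPKM in low glucose and 48.7 FPKM in galactose, and its locus lies on mm10 chromosome 7 from 45522917 to 45526268, minus strand. Its rise in low glucose, 1.37-fold, was the smallest of the 10, and its rise from low glucose to galactose, 2.01-fold, was exceeded among them by that of Trib3 alone. Ppp1r15b, the constitutive subunit with the same task, named after its values were seen, was at 26.8 FPKM, 36.3 FPKM and 37.0 FPKM. Against high glucose it rose too, 1.36-fold in low glucose and 1.38-fold in galactose. It was not called between low glucose and galactose (q = 0.791 in the authors' deposited table). The stress-induced form was therefore the lower of the pair in both glucose media, at 0.658 and 0.667 of the level of Ppp1r15b, and the higher in galactose, at 1.32 times that level. No spread is known for these ratios.

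The 10 genes differed in where the rise took place. For 6 of them, Chac1, Cebpg, Trib3, Nupr1, Atf5 and Atf4, the log2 change from high to low glucose was larger than that from low glucose to galactose. For the other 4, Ddit3, Cebpb, Atf3 and Ppp1r15a, it was smaller. Chac1 stood at one end, with log2 changes of 2.49 and then 0.60 in the authors' deposited table, so that 80.6% of its log2 rise was present in low glucose. Cebpg, at 0.93 and then 0.34, had 73.3% and Trib3 had 71.1%. Ppp1r15a stood at the other end, with log2 changes of 0.46 and then 1.01 in the authors' deposited table, or 31.3%, followed by Atf3 with 39.4% and Cebpb with 42.3%. Ddit3 divided almost evenly, at 49.6%. These sizes carry no error, and the differences between the steps were not tested.

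**Figure D2:**
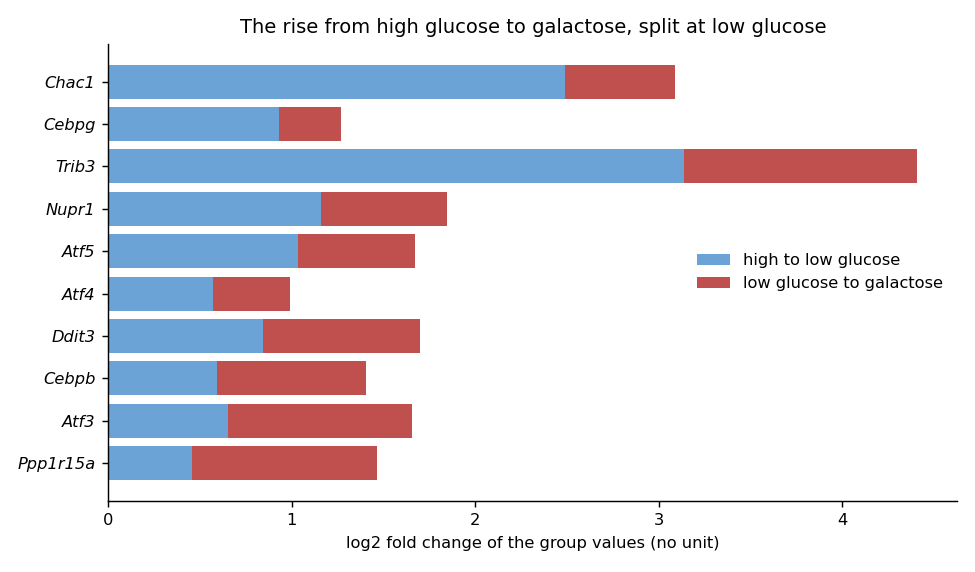
Log2 fold change (from the authors' deposited table) from high to low glucose and, stacked on it, from low glucose to galactose (x axis, no unit, no error available) for the 10 genes, ordered by the share of the rise present in low glucose. The share goes from 80.6% for Chac1 at the top to 31.3% for Ppp1r15a at the bottom.

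By level, the order of the 10 genes in high glucose was Atf4, Atf5, Cebpb, Nupr1, Ddit3, Chac1, Ppp1r15a, Trib3, Cebpg and Atf3. In galactose Chac1 had moved from the sixth place to the third and Trib3 from the eighth to the seventh, and Cebpg and Atf3 stayed last. Neighbours such as Nupr1 and Ddit3 in high glucose (49.4 and 48.2 FPKM) or Trib3 and Cebpg (5.58 and 5.54 FPKM) cannot be ordered without a spread. Chac1 went from percentile 82.5 of all loci by level in high glucose to percentile 98.0 in galactose, and Trib3 from 62.3 to 96.2.

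Upstream of ATF4, none of the 4 eIF2 kinase genes was called higher in any medium. Eif2ak3, which encodes PERK, the kinase that senses unfolded protein in the endoplasmic reticulum, fell from 6.76 FPKM to 5.53 FPKM in low glucose and 4.04 FPKM in galactose, 1.67-fold lower than in high glucose. Eif2ak4, the gene of the amino acid sensor GCN2, was at 6.08 FPKM, 6.31 FPKM and 6.39 FPKM. Eif2ak2, the gene of the double-stranded RNA sensor PKR, was at 130.2 FPKM, 139 FPKM and 141 FPKM. Eif2ak1, the gene of the haem-regulated kinase HRI, was at 16.2 FPKM, 15.9 FPKM and 13.5 FPKM. None of these last 3 was called (lowest q = 0.0727, for Eif2ak1 in galactose, in the authors' deposited table). Kinase activity was not measured, and messages of these kinases do not report it.

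The wider list of eIF2 kinases and regulators held 22 genes, of which 8 were called higher in low glucose and 1 lower (all loci 18.3% and 18.2%), and 10 higher and 1 lower in galactose (all loci 26.5% and 24.8%). Its median log2 change was 0.13 and 0.17. Those that rose most in galactose were Eif2b3, a subunit of the exchange factor that phosphorylated eIF2 blocks, with 0.87 as its log2 value in the authors' deposited table, Eif2s2, the beta subunit of eIF2, with 0.79, and Impact, an inhibitor of GCN2, with 0.77. Between low glucose and galactose 3 of the 22 were called higher and 2 lower (all loci 17.4% and 16.0%).

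**Figure D3:**
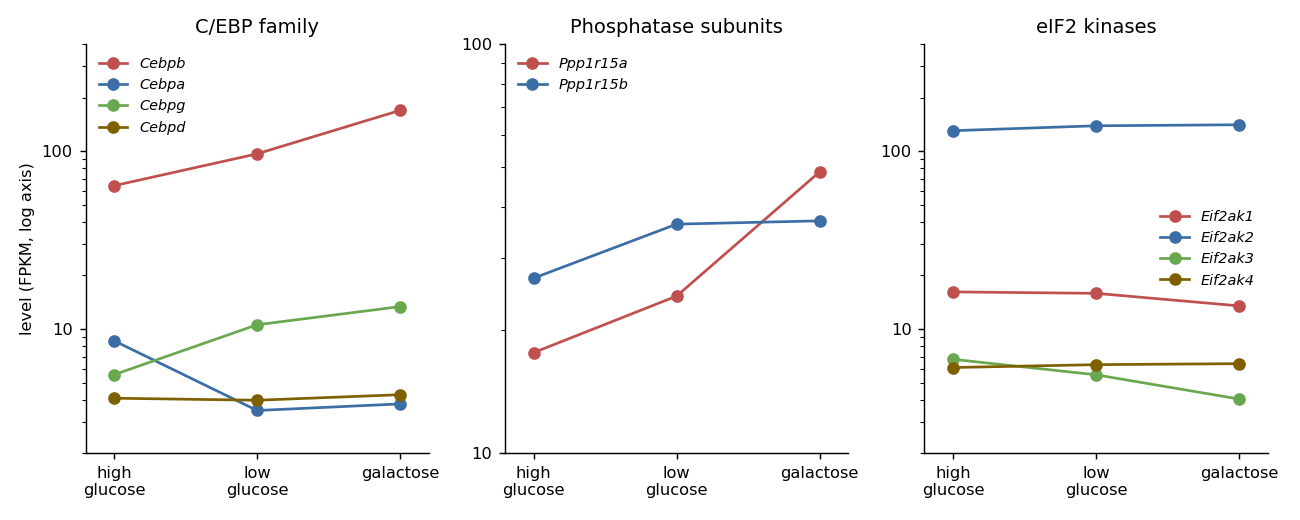
Levels (y axes, FPKM on a log scale) of the C/EBP genes, the 2 eIF2 phosphatase subunit genes and the 4 eIF2 kinase genes in the 3 media, 1 pooled value per point with no error. Cebpb goes up from 63.9 to 169 FPKM while Cebpa goes down from 8.59 to 3.80 FPKM, the lines of Ppp1r15a and Ppp1r15b cross between low glucose and galactose, and among the kinases Eif2ak3 falls from 6.76 to 4.04 FPKM.

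Other factors of the same basic leucine zipper class, which share the dimer code of ATF4 and CHOP, were called in both directions. Of 31 tested, 6 were called higher in low glucose and 8 lower (all loci 18.3% and 18.2%), 9 higher and 11 lower in galactose (all loci 26.5% and 24.8%), and 9 higher and 7 lower from low glucose to galactose (all loci 17.4% and 16.0%). The higher calls against high glucose were near the share over all loci. At q below 0.01, 3 were higher in low glucose and 6 lower in galactose, where the share over all loci was not counted. Maf fell most, from 9.50 FPKM to 2.28 FPKM in low glucose and 1.73 FPKM in galactose. Fos, an immediate early gene, fell from 2.22 FPKM to 1.41 FPKM and 0.780 FPKM. Nfil3, a repressor of the same class, rose from 14.6 FPKM to 21.0 FPKM and 25.7 FPKM. The median log2 change of these relatives was -0.038 in low glucose and -0.035 in galactose, beside 0.89 and 1.66 for the 10 core genes. Of other ATF genes, named after their values were seen, Atf1 rose 1.13-fold in low glucose and 1.29-fold in galactose. Atf2 was not called in any comparison, at 10.8 FPKM, 11.4 FPKM and 11.0 FPKM, and neither was Atf7. Atf6 was not called against high glucose but rose 1.12-fold from low glucose to galactose. Atf6b, at 37.0 FPKM, 30.9 FPKM and 36.6 FPKM, fell in low glucose and rose from low glucose to galactose. It was not called between high glucose and galactose.

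Downstream of ATF4, most genes of amino acid supply rose too. Of 34 tested, 32 were called higher in low glucose and 0 lower (all loci 18.3% and 18.2%), 32 higher and 2 lower in galactose (all loci 26.5% and 24.8%), and 30 higher and 2 lower from low glucose to galactose (all loci 17.4% and 16.0%), with median log2 changes of 1.00, 1.62 and 0.57. Where the authors' Cuffdiff test called 0 lower, 2 (Cbs and Slc38a2) were lower at an unadjusted p under 0.05. The largest rises in galactose were those of Cth, an enzyme of cysteine synthesis, Slc7a3, a transporter of basic amino acids, Aldh1l2, a mitochondrial folate enzyme, and Slc6a9, a glycine transporter. Their levels in high glucose and galactose were 1.37 and 61.0 FPKM, 0.0954 and 3.94 FPKM, 7.27 and 76.9 FPKM, and 7.60 and 54.4 FPKM. The 2 that fell in galactose were Cbs, an enzyme of cysteine synthesis that was at 0.445 FPKM or below in all 3 media, and Slc38a2, a transporter gene for small neutral amino acids, from 138 FPKM to 109.6 FPKM. Both exceptions were named after their values were seen. TGATGNAA was in a promoter window of 9 of the 25 genes of this list that had one, beside the 4.51% of all genes. The list was made of ATF4 targets, so this share does not test a link either.

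Further effectors of ATF4 or CHOP were also mostly higher in galactose, where 17 of 19 tested were called higher and 1 lower (all loci 26.5% and 24.8%), with a median log2 change of 1.88. In low glucose 12 of 17 tested were called higher and 1 lower (all loci 18.3% and 18.2%), and from low glucose to galactose 16 of 19 were called higher and 0 lower (all loci 17.4% and 16.0%), with a median of 1.25. At an unadjusted p under 0.05 in the authors' Cuffdiff test that last count was also 0. Adm2, which encodes the peptide hormone intermedin, went from 0.556 FPKM to 9.59 FPKM and 22.8 FPKM. Fgf21, a hormone gene that responds to ATF4 in muscle and liver, went from 0.0925 FPKM to 0.690 FPKM and 2.22 FPKM. Ero1a, an oxidase gene of the endoplasmic reticulum listed under its older symbol Ero1l and known to respond to CHOP, went from 7.98 FPKM to 14.2 FPKM and 34.6 FPKM. Bcl2l11, a cell death gene that CHOP is known to induce, went the other way and fell from 1.74 FPKM to 1.21 FPKM in low glucose and 1.28 FPKM in galactose. Tnfrsf10b, the gene of a death receptor that CHOP is known to induce, was not called, at 11.8 FPKM, 12.2 FPKM and 13.6 FPKM (lowest q = 0.0561 in the authors' deposited table). Bbc3, another cell death gene of the list, was at 6.19 FPKM, 6.99 FPKM and 7.82 FPKM. It rose in galactose against high glucose (q = 0.000858 in the authors' deposited table) and was not called in the other comparisons. Bcl2l11, Tnfrsf10b and Bbc3 were singled out after their values were seen.

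Among these effectors, 3 genes known to respond to CHOP under stress were listed below 0.5 FPKM in both glucose media. Car6, a secreted carbonic anhydrase, was at 0.0299 FPKM in high glucose, 0.498 FPKM in low glucose and 39.6 FPKM in galactose, and was called in all 3 comparisons. Avil, an actin-binding protein of the villin family, was at 0.170 FPKM, 0.263 FPKM and 12.2 FPKM. Tenm4, a teneurin, was at 0.180 FPKM, 0.0800 FPKM and 0.705 FPKM. Avil and Tenm4 had too few reads for the authors' tool to test in low glucose and rose in both comparisons with galactose. Over the same media Ddit3 itself rose in 2 steps of like size. Like all the lists, this one was chosen with earlier results of these data known. Car6 and Avil were put on it with their rise in galactose known, so its counts are not independent evidence of direction.

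Genes of the other arms of the unfolded protein response, which run through ATF6 and XBP1, were more often lower than higher against high glucose. Of 23 tested, 1 was called higher and 13 lower in low glucose (all loci 18.3% and 18.2%), 5 higher and 13 lower in galactose (all loci 26.5% and 24.8%), and 7 higher and 6 lower from low glucose to galactose (all loci 17.4% and 16.0%), with medians of -0.19, -0.25 and -0.072. Hspa5, the chaperone gene that is the standard marker of these arms, fell 1.19-fold in low glucose, from 364 FPKM to 306 FPKM, and was at 371 FPKM in galactose (q = 0.774 against high glucose in the authors' deposited table). From low glucose to galactose it rose 1.22-fold. Xbp1 fell from 34.1 FPKM to 26.9 FPKM in low glucose and 26.0 FPKM in galactose. Dnajb9, a target of XBP1, was at 6.42 FPKM, 6.16 FPKM and 7.35 FPKM and was not called against high glucose, but rose 1.19-fold from low glucose to galactose. Besides Herpud1, those higher in galactose than in high glucose were Ern1, the gene of the sensor that splices Xbp1 RNA, 1.48-fold, Derl1 1.47-fold, Sel1l 1.16-fold and Hyou1 1.11-fold, the last 3 of protein degradation or folding in the endoplasmic reticulum (these 4 were named after their values were seen). The largest falls in galactose were those of Sdf2l1, Creld2 and Calr, all of protein folding in the endoplasmic reticulum, which were 2.31-fold, 1.65-fold and 1.53-fold lower. Herpud1, a gene of protein degradation there that also answers to ATF4, was the 1 member higher in low glucose, at 44.3 FPKM, 85.8 FPKM and 113 FPKM. TGATGNAA was in the promoter window of 1 of the 21 genes of this list that had one, Herpud1, beside 4.51% of all genes. It was also in 1 of 18 of the eIF2 list, 1 of 26 of the leucine zipper relatives and 3 of 16 of the further effectors. Of the mitochondrial chaperones and proteases that had a window, it was in 0 of 8. Whether it bears on the rise of Herpud1 was not tested.

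**Figure D4:**
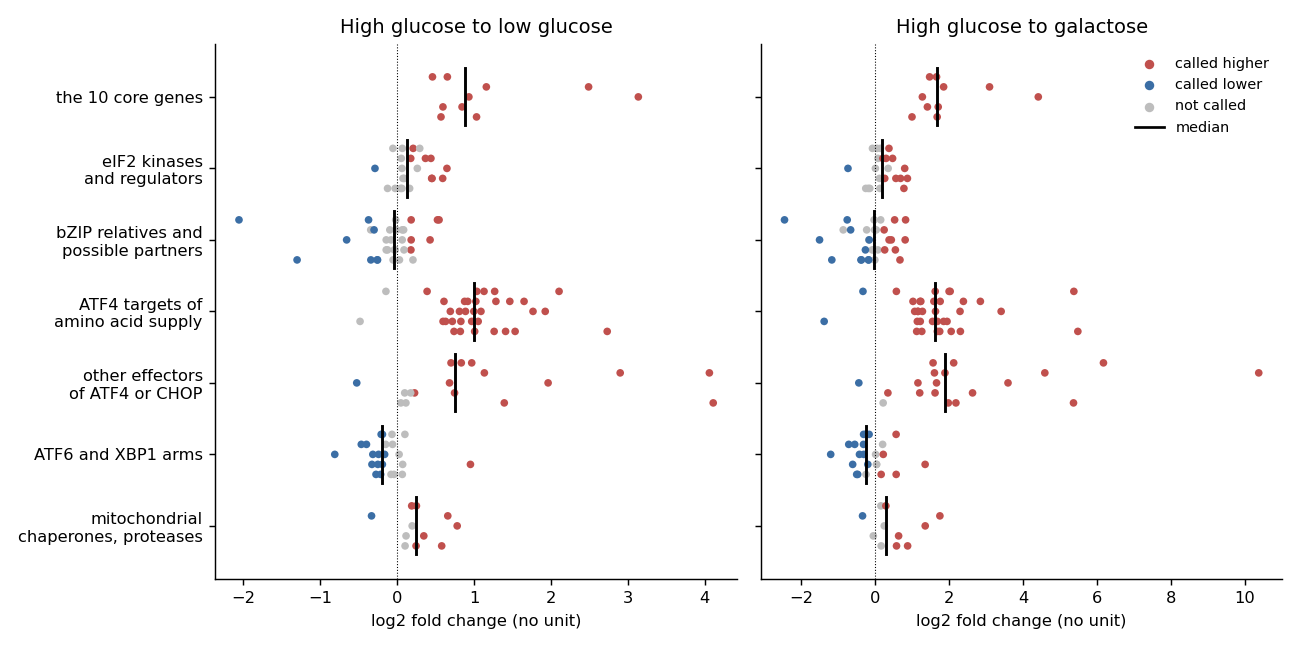
Log2 fold change (x axis, no unit, from the authors' deposited table) of each tested gene of the core and of 6 related lists, from high glucose to low glucose (left) and to galactose (right), with a black bar at each list's median and colour for the call. The 10 core genes and all but Cbs and Slc38a2 of the amino acid supply genes lie to the right of 0, with medians of 0.89 and 1.00 on the left panel and 1.66 and 1.62 on the right, while the medians of the ATF6 and XBP1 arms are -0.19 and -0.25.

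Of the mitochondrial chaperones and proteases, a group that ATF5 is known to serve, 7 of 11 were called higher in low glucose and 1 lower (all loci 18.3% and 18.2%), and 6 higher and 1 lower in galactose (all loci 26.5% and 24.8%). From low glucose to galactose 4 were called higher and 0 lower (all loci 17.4% and 16.0%), where 1 (Yme1l1) was lower at an unadjusted p under 0.05 in the authors' Cuffdiff test. Lonp1, a matrix protease that also answers to ATF4, went from 74.9 FPKM to 118 FPKM and 251 FPKM. Hspa9, the mitochondrial HSP70, went from 213 FPKM to 366 FPKM and 543 FPKM. Hspd1 and Hspe1, the paired HSP60 chaperonin genes, rose 1.83-fold and 1.55-fold in galactose. The median log2 change of this group in galactose was 0.28.

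Genes whose pattern lay nearest to that of a core gene were looked up among 7911 loci with 1 symbol that is no predicted or small-RNA name, at least 5 FPKM in the highest group and a test in all 3 comparisons, by the Euclidean distance between their pairs of log2 changes from high glucose (to low glucose, to galactose). Nearest to Atf4 were Ppp2r5a, C1qbp, Pabpc4, Rassf5 and Wdr12, at distances of 0.020 to 0.053 on the log2 scale. C1qbp, for example, went from 145 FPKM to 212 FPKM and 286 FPKM. Nearest to Ddit3 were Prkg2, Ccnd2, Agpat9, Stc2 and Havcr2, at distances of 0.076 to 0.149, among which Stc2, a secreted glycoprotein gene induced by ATF4, was also on the list of effectors. The likeness rests on 3 group values per gene.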

How the data were processed

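The 10 genes and the 6 related lists were chosen with earlier results of these data known. The submitters' processing notes name TopHat2 2.0.10, Cufflinks 2.2.0, Cuffdiff and the build mm10. Their settings and the normalization between libraries are not given in the sources used here. The file deposited is the authors' Cuffdiff table: FPKM, 1 pooled value per group and locus, the log2 ratio of these values with no pseudocount, a test score (not used further), and p-values and q-values. The deposited q-values equal the Benjamini-Hochberg adjustment of the deposited p-values over all 44006 tests of the 3 comparisons. Values per library were not analysed here, so no model was refitted here.

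Each symbol was looked up at 1 locus, that of highest FPKM summed over groups. Of 144 symbols in the 6 lists, 144 were found, 4 by an older symbol in RefSeq. Starts were raised by 1. Calls need a status of OK and q below 0.05. Named genes were all 10 core genes, for each list at most 4 genes, those changed most in galactose among called genes reaching 1 FPKM, and a set named in the rule (the eIF2 kinases, Cebpa, Cebpd, Car6, Avil, Tenm4, Ero1a, Hspa5, Xbp1 and Dnajb9). Named besides were the 5 loci nearest in pattern to Atf4 and to Ddit3, markers, entries sharing a gene's region, and genes the text marks as named after their values were seen. The motif search and the adjustment were tested on simulated data. Alternatives were q below 0.01, a 2-fold minimum (core genes only), a 1 FPKM minimum, adjustment within a comparison, a pseudocount of 1 FPKM, re-centring, and loci with 1 symbol only. The work used matplotlib 3.10.9, scipy 1.17.1, numpy 2.4.6, pandas 2.3.3 and Python 3.11.15.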

Additional observations from a re-analysis of the deposited data

How the results depend on the processing

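The count of core genes called higher stayed at 10 in each comparison at q below 0.01, with at least 1 FPKM in the higher group and with adjustment within the comparison. The first 2 of these settings could not lower it. The largest q of the 30 tests was 0.00494 (Ddit3), and the lowest level was 3.07 FPKM (Atf3). With a log2 change of at least 1 it was 4 in low glucose, 9 in galactose (without Atf4) and 3 from low glucose to galactose. The median log2 change of the core in low glucose was 0.83 with a pseudocount of 1 FPKM, 0.88 re-centred on all tested loci and 0.79 without Ddit3 and Atf5, whose regions hold other entries (an alternative chosen after seeing the data). In galactose the same settings gave 1.54, 1.66 and 1.56, and from low glucose to galactose the pseudocount gave 0.74 and re-centring 0.74. Keeping loci with 1 symbol only left the 3 medians unchanged, since all 10 loci have 1. Of 30 single values, 0 changed sign under the pseudocount or re-centring, but neither setting could have changed one. Adding 1 FPKM to both values keeps the sign of their ratio. Re-centring shifted values by 0.010 at most, and the smallest of the 30 was 0.34. Settings for the related lists were also chosen after seeing the data, and 100 of 108 counts stayed within 1.5 times. The 2-fold minimum, which moved the core counts most, was not applied to these lists. In the eIF2 list the largest rise in galactose, a log2 change of 0.87 for Eif2b3, was below that minimum. Of the eIF2 list, 2 genes were lower in galactose with adjustment within the comparison, and 1 from low glucose to galactose there and at q below 0.01. Of the leucine zipper relatives, 3 were higher in low glucose and 6 lower in galactose at q below 0.01. Of the amino acid supply list, 1 was lower in galactose at 1 FPKM or more, and 1 from low glucose to galactose at that minimum and at q below 0.01. The shares of all loci called were counted at q below 0.05 only, so these counts have no such share beside them. No paired analysis was possible because the table holds 1 pooled value per group, and for the same reason no library could be left out. Depth is unknown, so how far it limits Car6, Avil, Tenm4 and other genes below 1 FPKM was not tested.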

Other observations

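In a few loci the deposited log2 fold change differed by more than 0.001 from the log2 ratio of the deposited group values. This was so for 27 of 14690 tested loci from high to low glucose, 23 of 14799 from high glucose to galactose and 25 of 14490 from low glucose to galactose, counting loci above 0 in both groups. None of the 10 core genes and none of the genes of the 6 related lists was among them.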
